A study of Mus musculus with 4 samples.

Results

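The SWI/SNF (BAF) complex is a chromatin remodeling machine in which several positions can be filled by 1 of 2 or more paralogous subunits. The 10 genes examined here, of 24873 genes in the table, encode 5 pairs of paralogous subunits. These are the ATPases Smarca4 (BRG1) and Smarca2 (BRM), the scaffold subunits Smarcc1 (BAF155) and Smarcc2 (BAF170), and the ARID subunits Arid1a and Arid1b. The others are the SMARCD subunits Smarcd1 and Smarcd3, and the actin-like subunits Actl6a (BAF53A) and Actl6b (BAF53B). The genes were taken by gene symbol, and all 10 were listed. RNA was sequenced from sorted brain cells of mice that carried a tamoxifen-activated Cre recombinase under the VE-cadherin (Cdh5) promoter and floxed alleles of Mgp on both chromosomes (Cdh5cre;Mgpflox/flox). Mgp encodes a BMP inhibitor whose endothelial loss is used as a model of cerebral arteriovenous malformation, and both groups carried these alleles. The 2 tamoxifen libraries came from mice dosed at 10 weeks of age with 75 mg/kg on each of 5 days, and the 2 control libraries from undosed mice. Cells were collected on day 9, with 3 mice pooled per library. No library of mice without Cre but with tamoxifen was analysed here, so the drug and the deletion cannot be told apart. The study's text describes the cells as CD31+CD45-, whereas the labels call them tdTomato+ brain cells.

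The complex uses the energy of ATP to slide and evict nucleosomes, and so opens enhancers and promoters. Its subunit choice is known to change with cell state. Pluripotent cells build their complexes around BRG1, BAF155 and BAF53A with little BRM or BAF170, many differentiated cells carry more BRM and BAF170, and neurons exchange BAF53A for BAF53B as they leave the cell cycle. SMARCD3 (BAF60C) is known from heart and muscle. Each pair therefore gives a ratio that can be followed within a library, and such a ratio does not depend on the factor by which that library was scaled.

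Values are normalized counts, that is reads per gene divided by the authors by 1 factor per library, and the libraries held 35387438 to 49799321 reads on genes. Mgp, the deleted gene, had 1094 and 1352 normalized counts in controls versus 945 and 909 after tamoxifen, with a log2 fold change of -0.39 ± 0.18 (SE, limma, adjusted p = 0.0986). The tamoxifen libraries differed from the controls in much more than Mgp. All 12 endothelial markers were lower, and their summed level went from 1202543 and 1226826 to 213056 and 107761 normalized counts. All 12 pluripotency markers were higher, summing to 127 and 225 in controls and to 68146 and 51976 after tamoxifen, and all 10 cell cycle genes were higher, from 3706 and 4463 to 106021 and 99283. Summed neuron markers went from 2141 and 2625 to 19841 and 33016, with 10 of 12 called higher. Summed astrocyte markers went from 29992 and 35823 to 158275 and 328901, with 8 of 8 called higher, and summed neutrophil markers from 297 and 232 to 109142 and 81330, with 8 of 8 called higher (Ly6g had no read in either control). Oligodendrocyte (7 of 8), erythroid (8 of 8), and B and T cell genes (6 of 6 tested) were called higher as well. So were muscle genes (6 of 6 tested, Myog without a read in either control). Of 8 pituitary genes 7 were listed, with 6 called lower and 1 called higher. The part of these cell types in the results below was not tested, and in such bulk samples fewer cells of a type and less RNA per cell cannot be told apart.

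Genes were called at an adjusted p under 0.05 (limma, Benjamini-Hochberg over 20485 tested genes) and a log2 fold change over 1 in size, and "rose" and "fell" are used for called genes. Of the 10 members, Smarcc1, Actl6b and Smarcd3 rose and Smarca2 fell, while 6 were not called. Over all tested genes 28.6% were called higher and 16.0% lower, 44.7% in all, so 3 of 10 and 1 of 10 are near the background. By the p threshold alone Smarcd1 joins the higher genes, against 33.4% of tested genes higher, 25.5% lower and 58.9% in all. The median log2 fold change of the members was 0.31, and that of all tested genes was 0.05. All 10 had groups that did not overlap, 6 with higher and 4 with lower tamoxifen values, as did 82.3% of all tested genes, 43.1% higher and 39.2% lower. The members are described below by pair, as ratios within each library. How often ratios of other gene pairs separate the groups was not computed.

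**Figure D1:**
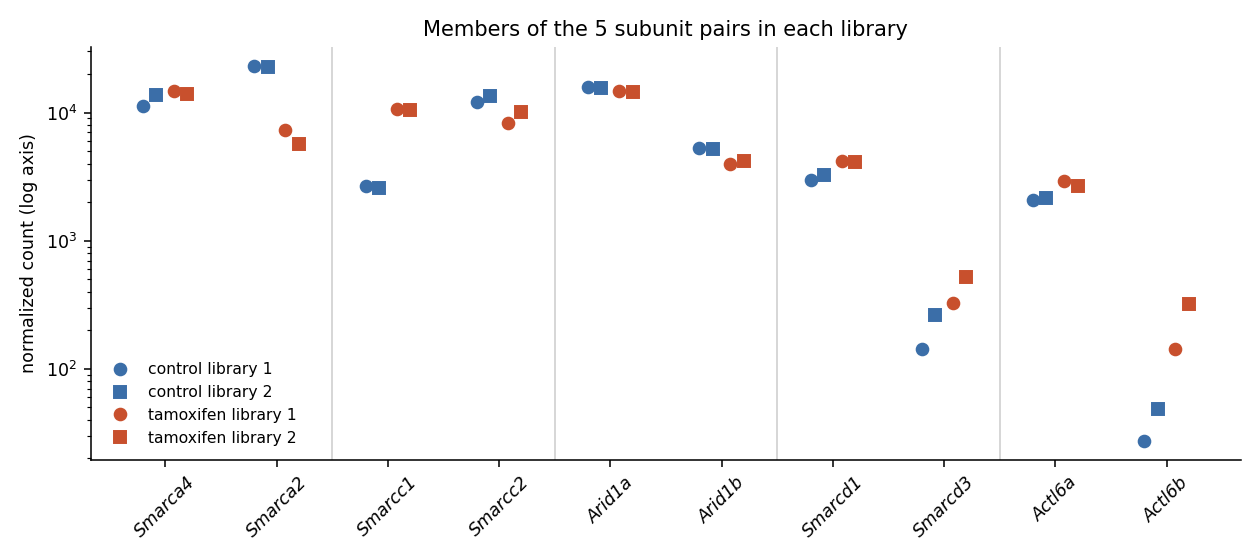
Normalized counts (log axis) of the 10 members in the 2 control and 2 tamoxifen libraries, 1 point per library, with grey lines between pairs. Smarca2 lies between 5669 and 7319.9 in the tamoxifen libraries against 22774 and 23055 in the controls, and Smarcc1 between 10413 and 10759 against 2561 and 2667.

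Smarca4 and Smarca2 encode the alternative motors of the complex. Smarca4 (chromosome 9 from 21527398 to 21615526 of GRCm39) had 11215 and 13726 normalized counts in controls versus 14689 and 14040 after tamoxifen. The tamoxifen values were above both controls by a margin within the spread of the controls (log2 fold change 0.21 ± 0.19 SE, limma, adjusted p = 0.358). Smarca2 (chromosome 19 from 26582450 to 26755722) had 23055 and 22774 in controls versus 7319.9 and 5669 after tamoxifen. Both tamoxifen libraries lay far below both controls, the second lower than the first, and the gene fell by 1.83 ± 0.19 on the log2 scale (limma, adjusted p = 0.000163), which is 3.56-fold. The endothelial markers were also lower in the second tamoxifen library. Pecam1 (CD31) was at 15987 in the first and 8973 in the second against 83681 and 88796 in the controls. A link of these markers to Smarca2 was not tested.

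The ratio of Smarca4 to Smarca2 reads was therefore 0.486 and 0.603 in controls versus 2.01 and 2.48 after tamoxifen, with Smarca2 ahead in both controls and Smarca4 ahead in both tamoxifen libraries. On the log2 scale the ratio moved from -0.88 ± 0.22 to 1.16 ± 0.21 (SD, n = 2 each), a shift of 2.04 ± 0.22 (SE), or 4.12-fold. Of the pair, Smarca2 was called and Smarca4 was not. Reads depend on transcript length, so levels were also divided by the merged exon length of each gene. Per kilobase, Smarca4 made up 56.9% and 62.0% of the RNA counted for the ATPase position in controls versus 84.5% and 87.0% after tamoxifen. All such shares are of RNA, and protein levels and the make-up of the complex were not measured here. With the longest annotated transcript as the length, the shares were 36.0% and 41.1% and then 69.9% and 74.2%, so which ATPase leads in the controls depends on the length used, while the Smarca4 share was higher after tamoxifen with both.

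Smarcc1 and Smarcc2 encode the scaffold pair on which the complex is assembled. Smarcc1 (chromosome 9 from 109946776 to 110069252) had 2667 and 2561 normalized counts in controls versus 10759 and 10413 after tamoxifen. It rose 4.05-fold (log2 fold change 2.02 ± 0.15 SE, limma, adjusted p = 4.27e-05), and within each group the 2 libraries were close. Smarcc2 (chromosome 10 from 128294424 to 128326456) had 12048 and 13383 in controls versus 8269 and 10123 after tamoxifen, lower in both but short of the call (log2 fold change -0.47 ± 0.18 SE, limma, adjusted p = 0.0565).

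The Smarcc1 to Smarcc2 ratio was 0.221 and 0.191 in controls versus 1.30 and 1.03 after tamoxifen. The log2 ratio went from -2.28 ± 0.15 to 0.21 ± 0.24 (SD, n = 2 each), a shift of 2.49 ± 0.20 (SE) or 5.62-fold. Per kilobase, Smarcc1 held 16.4% and 14.5% of the RNA counted for the scaffold pair in controls versus 53.6% and 47.7% after tamoxifen. That is a move from a minor share to near parity. The cell cycle marker Mki67 was higher as well, at 340 and 431 in controls versus 31066 and 32223 after tamoxifen. So was the pluripotency marker Nanog, at 8.22 and 7.51 and then 7823 and 5241. Neuron, astrocyte, neutrophil and erythroid markers also moved in this direction, and a link of any of them to Smarcc1 was not tested.

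**Figure D2:**
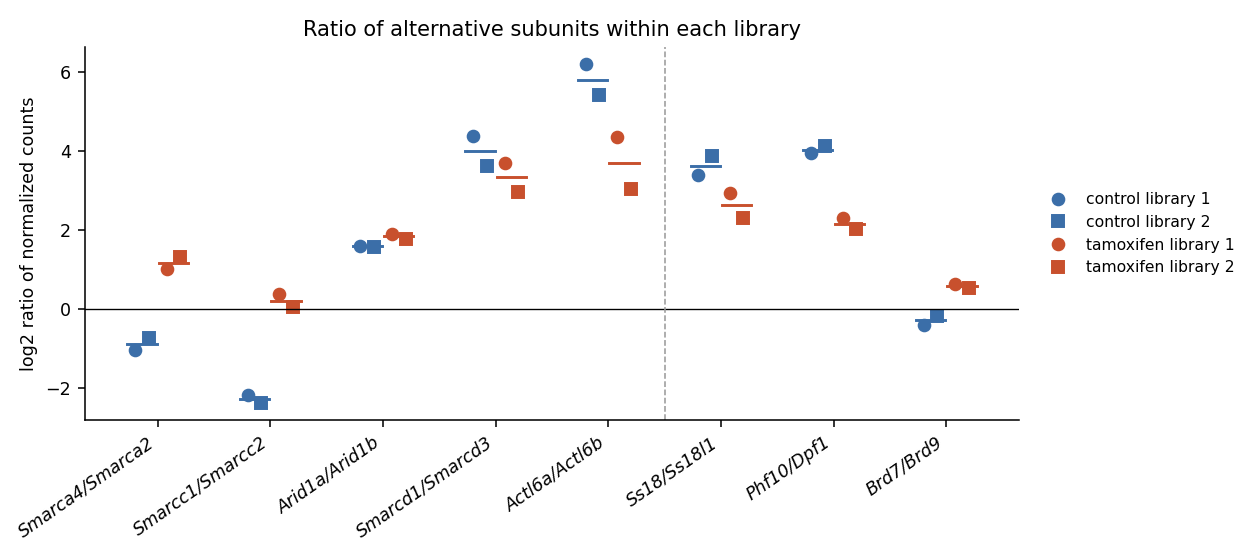
Log2 ratio of the normalized counts of alternative subunits in each library, 1 point per library with a bar at the group mean, the 5 member pairs left of the dashed line and 3 further pairs right of it. Smarca4/Smarca2 goes from below 0 to above 0, Smarcc1/Smarcc2 from below -2 to just above 0, and Actl6a/Actl6b falls while staying above 3.

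Promoter windows of Smarca2, Smarcc1 and Actl6b, the called members with the lowest adjusted p, are given from RefSeq (250 bases before the RefSeq start, from a GRCm38.p6 table), each placed in GRCm39 by an exact match. The Smarcc1 window lies inside the gene span given above, which in GENCODE starts further upstream at 109946776, and the ends of the Smarca2 and Actl6b windows reach past their GENCODE starts. Capitals mark the GC box GGGCGG and the ETS core CCGGAAG on either strand.
Smarca2, chr19:26582310-26582559, plus strand: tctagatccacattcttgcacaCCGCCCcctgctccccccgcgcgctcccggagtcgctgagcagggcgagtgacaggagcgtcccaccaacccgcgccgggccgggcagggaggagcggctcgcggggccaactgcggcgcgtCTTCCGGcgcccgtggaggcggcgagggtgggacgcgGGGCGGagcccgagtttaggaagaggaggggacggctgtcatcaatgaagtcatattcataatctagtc
Smarcc1, chr9:109960842-109961091, plus strand: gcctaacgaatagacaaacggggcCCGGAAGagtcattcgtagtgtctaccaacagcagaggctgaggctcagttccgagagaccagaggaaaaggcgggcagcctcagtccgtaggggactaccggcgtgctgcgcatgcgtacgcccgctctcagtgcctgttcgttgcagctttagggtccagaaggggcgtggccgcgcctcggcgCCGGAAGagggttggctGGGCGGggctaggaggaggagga
Actl6b, chr5:137551558-137551807, plus strand: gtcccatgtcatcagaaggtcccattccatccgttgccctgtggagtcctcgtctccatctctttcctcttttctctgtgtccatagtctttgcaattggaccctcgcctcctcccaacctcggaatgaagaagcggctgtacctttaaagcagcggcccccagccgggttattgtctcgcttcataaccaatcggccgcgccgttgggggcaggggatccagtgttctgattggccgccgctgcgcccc
Smarca2 and Smarcc1, which moved in opposite directions, both held the ETS core, once and 2 times, and the GC box, 2 times and once. Of 32851 promoter windows of the same length, 6.91% held the ETS core and 32.7% the GC box on either strand. The other 8 members had no ETS core in these windows. The Actl6b window held neither motif but 3 copies of CCAAT, a sequence found in 33.8% of the windows and in no other member's window. CG dinucleotides numbered 28 for Smarca2, 21 for Smarcc1 and 15 for Actl6b, against a median of 6 over all windows. These letters describe the windows and do not show that a factor was bound.

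Arid1a and Arid1b encode the large DNA-binding subunits of the canonical complex. Arid1a (chromosome 4 from 133406304 to 133484080) had 15912 and 15562 normalized counts in controls versus 14708 and 14564 after tamoxifen (log2 fold change -0.10 ± 0.18 SE, limma, adjusted p = 0.63). Arid1b (chromosome 17 from 5044607 to 5397931) had 5271 and 5187 and then 3942 and 4226 (log2 fold change -0.36 ± 0.15 SE, limma, adjusted p = 0.0698). Neither was called. Their log2 ratio was 1.59 in each control library and 1.90 and 1.78 after tamoxifen, a shift of 0.25 ± 0.06 (SE), or 1.19-fold. With Arid2, the ARID subunit of the PBAF form, included in the position, the per-kilobase share of Arid1a was 56.3% and 58.5% in controls versus 60.6% and 58.9% after tamoxifen, and that of Arid2 overlapped between the groups.

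Smarcd1 and Smarcd3 encode subunits that contact transcription factors. Smarcd1 (chromosome 15 from 99599991 to 99611876) had 2989 and 3243 normalized counts in controls versus 4205 and 4083 after tamoxifen. Its adjusted p was 0.0428 (limma, log2 fold change 0.41 ± 0.15 SE), which passes the p threshold but not the fold threshold. Smarcd3 (chromosome 5 from 24795816 to 24829409) had 142 and 262 in controls versus 324 and 517 after tamoxifen, and rose 2.11-fold (log2 fold change 1.08 ± 0.38 SE, limma, adjusted p = 0.041). Within each group the second library had the higher value, and the gap between the controls was wider than that from the higher control to the lower tamoxifen library. Of the merged exon bases of Smarcd3, 43.4% are shared with Chpf2 on the opposite strand, so the Smarcd3 count is uncertain: the libraries were made with a stranded kit, but whether strand was used in counting is not given in the sources used here. The same limit holds for Smarcd2 (28.5% shared with Psmc5), Brd7 (28.4% with Adcy7), Phf10 (24.7% with 1600012H06Rik), Bicral (12.7% with a noncoding RNA) and Actl6a (11.6% with Mrpl47), and for the shares and ratios that hold them. Its call was lost without control library 1 (adjusted p = 0.147, limma) and without tamoxifen library 1 or 2 (0.168 and 0.375), at log2 fold changes from 0.64 to 1.52 with each library left out in turn, and after quantile normalization its log2 fold change was 0.05. Chpf2 had 1418 and 1542 normalized counts in controls versus 896 and 879 after tamoxifen, the opposite direction to Smarcd3. Mrpl47 had 537 and 562 in controls versus 776 and 840 after tamoxifen, the same direction as Actl6a. The part of such overlaps in the counts was not tested.

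The log2 ratio of Smarcd1 to Smarcd3 was 4.38 and 3.63 in controls versus 3.69 and 2.98 after tamoxifen, so that the groups overlapped (shift -0.67 ± 0.52 SE). Smarcd2, the other paralogue at this position, known from blood cell development, had 3590.1 and 3971 in controls versus 3282 and 2657 after tamoxifen (log2 fold change -0.35 ± 0.17 SE, limma, adjusted p = 0.104). Per kilobase the Smarcd1 share went from 43.5% and 42.5% to 53.1% and 55.9%, the Smarcd2 share from 54.8% and 54.7% to 43.5% and 38.2%, and the Smarcd3 share from 1.70% and 2.82% to 3.37% and 5.82%.

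Actl6a and Actl6b encode the actin-like pair, with Actl6a in dividing cells and Actl6b in neurons. Actl6a (chromosome 3 from 32760447 to 32781128) had 2096 and 2138 normalized counts in controls versus 2941 and 2652 after tamoxifen, and was not called (log2 fold change 0.40 ± 0.15 SE, limma, adjusted p = 0.0507). Actl6b (chromosome 5 from 137551767 to 137567844) had 27.4 and 48.8 in the controls, from 20 and 39 reads, and 142 and 321 in the tamoxifen libraries, from 131 and 446 reads. It rose 5.70-fold (log2 fold change 2.51 ± 0.54 SE, limma, adjusted p = 0.00518), with the second tamoxifen library above the first. Leaving out either tamoxifen library ended this call (adjusted p = 0.0722 without the first and 0.14 without the second, limma), with log2 fold changes between 1.93 and 3.10, as did quantile normalization at 1.45 (adjusted p = 0.0571). Neuron and astrocyte markers were likewise higher in the second tamoxifen library than in the first. Rbfox3 (NeuN) was at 32.9 and 22.5 in controls versus 161 and 636 after tamoxifen, and Dcx at 219 and 197 and then 4144 and 7721. Slc1a3 was at 3349 and 4930.0 and then 37678 and 77311. Summed pluripotency, neutrophil, erythroid, B and T cell, cell cycle and endothelial markers were lower in the second tamoxifen library than in the first. A link of any of these markers to Actl6b was not tested.

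The Actl6a to Actl6b ratio was 76.5 and 43.8 in controls versus 20.7 and 8.27 after tamoxifen. The log2 ratio went from 5.82 ± 0.55 to 3.70 ± 0.93 (SD, n = 2 each), a shift of -2.11 ± 0.77 (SE). Actl6a still held most of the RNA counted for the position per kilobase, with 99.0% and 98.2% in controls versus 96.3% and 91.3% after tamoxifen. The subunit that gained in this ratio is the one known from neurons, whereas those that gained in the ATPase and scaffold ratios are known from pluripotent cells. These are gains in ratio, since Smarca4 itself was not called, and Actl6a was itself higher in both tamoxifen libraries. Whether the same cells carried the changes of these pairs cannot be read from pooled RNA.

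Set side by side, the first-named subunit gained on the second in the ATPase, scaffold and ARID pairs, and lost in the actin-like pair. In these 4 pairs the ratios did not overlap between the groups. Single genes did not overlap for 82.3% of all tested genes, and the share for ratios of other gene pairs was not computed. An exact two-sided permutation test of 2 libraries against 2 cannot give a p below 0.333. Each of the 4 ratios without overlap was at that limit (adjusted p = 0.417 over the 5 pairs), and the Smarcd pair was at 0.667.

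**Figure D3:**
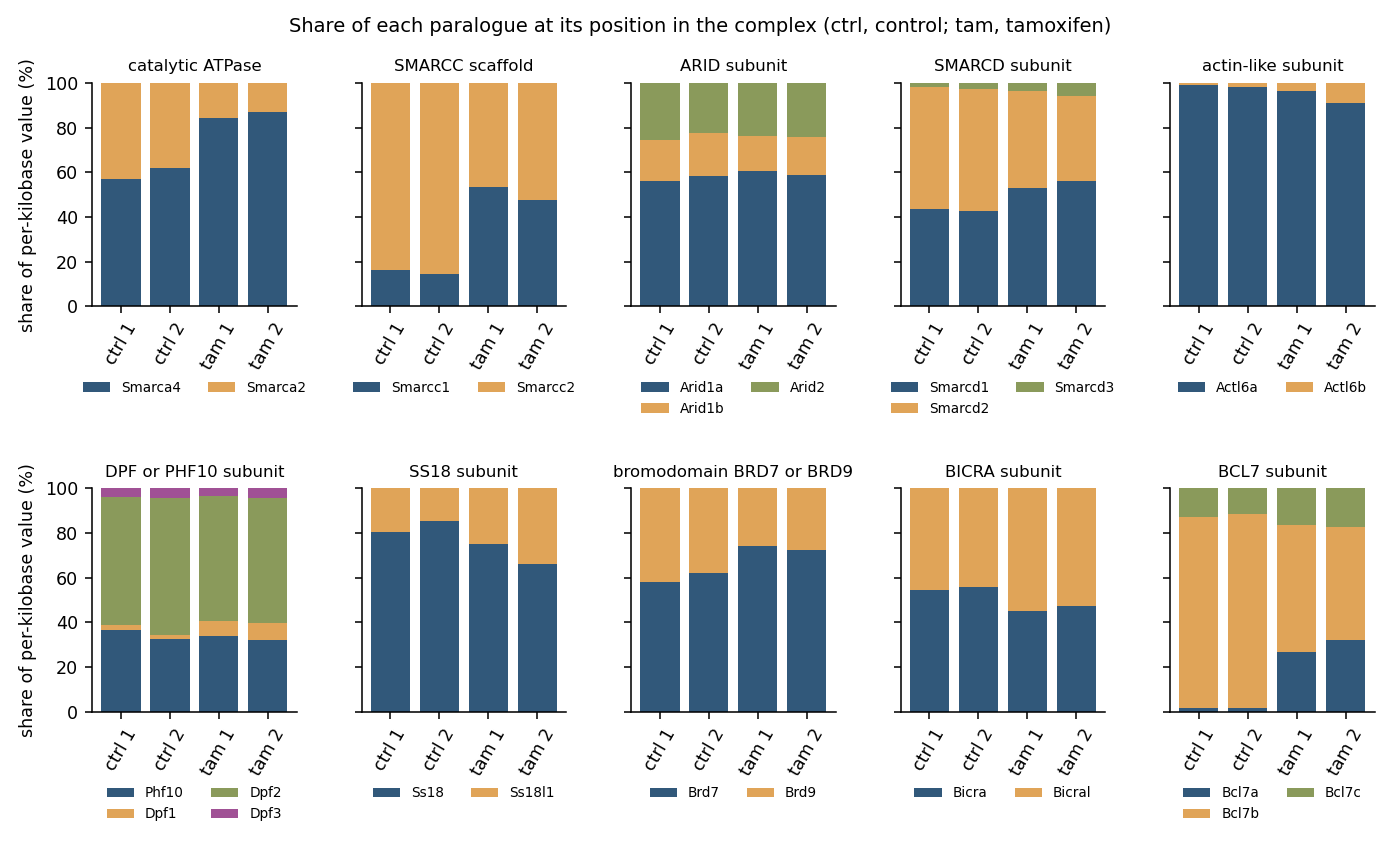
Share of each paralogue (%) in the summed per-kilobase value of its position in the complex, 1 bar per library (ctrl, control; tam, tamoxifen), lengths from merged exons. The Smarca4 and Smarcc1 parts are larger in both tamoxifen libraries, and Bcl7a grows from 1.73% and 1.72% to 26.6% and 32.2% of the BCL7 position.

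The order of the members by level per kilobase of merged exon also differed between the groups. In the control libraries the order was Smarca4, Smarcc2, Smarca2, Arid1a, Smarcd1, Actl6a, Arid1b, Smarcc1, Smarcd3 and Actl6b, from 1896 ± 270 to 7.64 ± 3.03 normalized counts per kilobase (SD, n = 2), and only Smarca4 and Smarcc2 overlapped among neighbours. In the tamoxifen libraries it was Smarca4, Smarcc1, Smarcc2, Arid1a, Smarcd1, Actl6a, Smarca2, Arid1b, Smarcd3 and Actl6b, from 2184 ± 69.7 to 46.4 ± 25.3. Smarcc1 ranked 8 in the controls and 2 after tamoxifen, and Smarca2 ranked 3 and then 7. This order depends on the length used, since with the longest transcript Smarca2 led in the controls, at 3028 normalized counts per kilobase against 2077 for Smarcc2 and 1909 for Smarca4, and Smarcc1 ranked 7 there. In the tamoxifen libraries Smarcc1 and Smarcc2, Smarcc2 and Arid1a, Smarca2 and Arid1b, and Smarcd3 and Actl6b did not differ beyond their ranges.

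The other 19 subunits of the BAF, PBAF and noncanonical complexes were compared in the same fit. Bcl7a and Dpf1 rose, and Brd9 and Bcl7b fell, that is 2 called in each direction of 19, below the 28.6% higher and 16.0% lower of all tested genes, with a median log2 fold change of -0.20 against 0.05 for all tested genes. Bcl7a, a small accessory subunit, had 171 and 212 normalized counts in controls versus 2371 and 2675 after tamoxifen, and rose 13.2-fold (limma, log2 fold change 3.72 ± 0.21 SE, adjusted p = 1.28e-05), the largest log2 fold change of the members and other subunits in this fit. Its paralogue Bcl7b went from 2204 and 2779 to 1328 and 1096 (log2 fold change -1.04 ± 0.19 SE, limma, adjusted p = 0.00215), and Bcl7c overlapped at 999 and 1133 against 1163 and 1129. At the BCL7 position paralogues were thus called in opposite directions, which was not so for any of the 5 member pairs, although with libraries rescaled to equal totals neither Bcl7b nor Brd9 was called lower.

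Dpf1 (BAF45B), a PHD finger subunit of neuronal complexes, had 174 and 145 normalized counts in controls versus 483 and 532 after tamoxifen (log2 fold change 1.67 ± 0.27 SE, limma, adjusted p = 0.00121). Its counterpart in progenitors, Phf10 (BAF45A), had 2731 and 2551 and then 2393 and 2167, so the Phf10 to Dpf1 ratio went from 15.7 and 17.6 to 4.95 and 4.07. Ss18l1 (CREST), also of neuronal complexes, was not called at 478 and 335 against 521 and 685 (adjusted p = 0.0962, limma), and the Ss18 to Ss18l1 ratio went from 10.6 and 14.7 to 7.77 and 4.93. Dpf3 (BAF45C), also known from neuronal complexes, overlapped between the groups at 318 and 375 against 268 and 354 (log2 fold change -0.17 ± 0.27 SE, limma, adjusted p = 0.618). Of the subunits known from neuronal complexes, Actl6b and Dpf1 were thus called higher and Ss18l1 and Dpf3 were not.

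Brd9, Bicra and Bicral belong to the noncanonical complex. Brd9 had 5671 and 5362 normalized counts in controls versus 2702 and 2625 after tamoxifen (log2 fold change -1.05 ± 0.15 SE, limma, adjusted p = 0.000596). Bicra went from 3422 and 3447 to 1859.8 and 1853 and passed the p threshold alone (log2 fold change -0.89 ± 0.14 SE, limma, adjusted p = 0.00132), while Bicral had 3402 and 3283 and then 2714 and 2492 (adjusted p = 0.0673, limma). Brd7, the bromodomain counterpart of Brd9 in PBAF, went from 4312 and 4775 to 4220.3 and 3767 (adjusted p = 0.329, limma), so the Brd7 to Brd9 ratio went from 0.760 and 0.891 to 1.56 and 1.44. The other PBAF subunits Pbrm1 and Arid2 overlapped between the groups, with log2 fold changes of -0.07 and -0.16.

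Smarcb1 and Smarce1 are core subunits without a paralogue in the complex, and neither was called. Smarcb1 (BAF47) had 3239 and 3867 normalized counts in controls versus 3799.8 and 3773 after tamoxifen, and Smarce1 (BAF57) had 3676 and 4138 and then 3283 and 3497. Their log2 fold changes were 0.10 ± 0.16 and -0.20 ± 0.15 (SE, limma, adjusted p = 0.618 and 0.281). The groups overlapped for Smarcb1 and not for Smarce1. Of the rest, Dpf2 at -0.23 and Actb at -0.53 were not called, and Ss18 at -0.44 passed the p threshold alone (limma, adjusted p = 0.047). Actb also encodes the bulk of cytoplasmic actin, so its count is not specific to the complex.

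**Figure D4:**
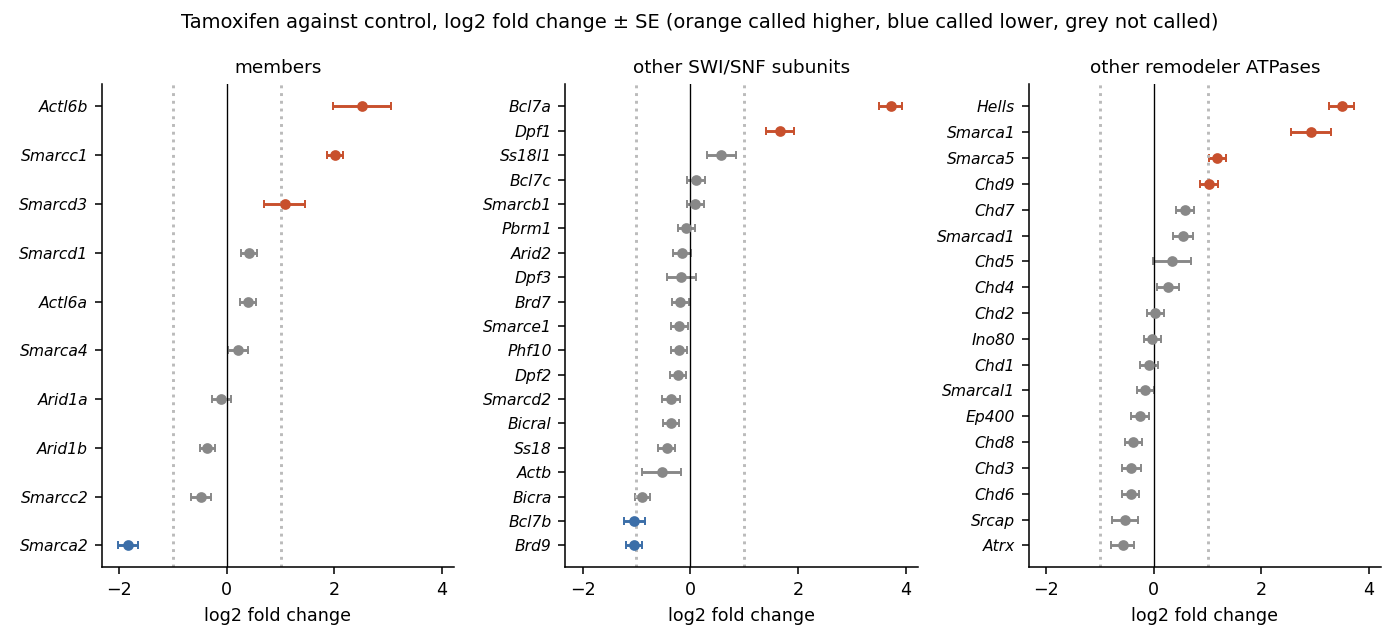
Log2 fold change, tamoxifen against control, with its standard error from limma for the 10 members, the 19 other SWI/SNF subunits and 18 ATPases of other remodelers, where dotted lines mark a log2 fold change of 1 in size. Most subunits lie between the dotted lines. Smarca2, Brd9 and Bcl7b lie to the left of them, and Smarcc1, Actl6b, Smarcd3, Bcl7a and Dpf1 to the right.

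The ATPases of the other remodeler families gave a reference for the motors. Of 18, Hells, Smarca1, Smarca5 and Chd9 rose and none was called lower, beside 28.6% and 16.0% of all tested genes, with a median log2 fold change of 0.00. By the p threshold alone limma called 6 higher and 2 lower, beside 33.4% and 25.5%. Hells, a helicase of dividing cells needed for DNA methylation, had 427 and 299 normalized counts in controls versus 4577 and 3540 after tamoxifen (log2 fold change 3.49 ± 0.23 SE, limma, adjusted p = 2.62e-05). The ISWI pair Smarca1 (SNF2L) and Smarca5 (SNF2H) rose together, Smarca1 from 43.8 and 56.3 to 333 and 443 and Smarca5 from 2757 and 2512 to 6340.2 and 5623 (log2 fold changes 2.92 and 1.18). Among these 18 and the SWI/SNF ATPases, Smarca2 alone was called lower by both thresholds in limma.

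The closest patterns to Smarca2 and Actl6b, the members with the lowest and the highest log2 fold change, were sought among 13668 other genes averaging 100 normalized counts or more, by the largest difference of log2 values from the control mean over the 4 libraries. For Smarca2 they were Arhgef28, Reck and Shroom2, which differed from it by at most 0.015, 0.026 and 0.027. For Actl6b they were Kcnip3, Kcnj16 and Abat, with 0.034, 0.045 and 0.054. With 4 libraries such likeness is a description only.

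**Figure D5:**
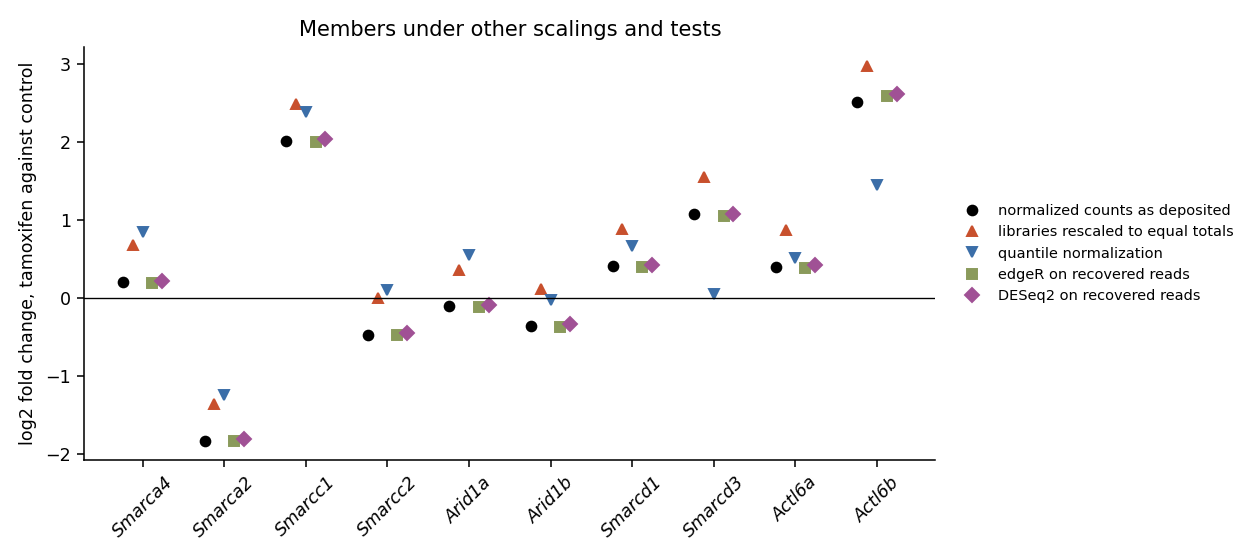
Log2 fold change of each member, tamoxifen against control, from the deposited normalized counts, after 2 other scalings of the libraries and from 2 count models on recovered reads. Smarca2 stays between -1.83 and -1.24 and Smarcc1 between 2.01 and 2.49, while Smarcc2 and Arid1a lie below 0 as deposited and above 0 after quantile normalization.

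The deposited normalized counts summed to less in the tamoxifen libraries, at 0.722 of the controls. Rescaling to equal totals moved the median log2 fold change of all tested genes from 0.05 to 0.52 and quantile normalization moved it to -0.20. Relative to that median, Smarca2 was at -1.88 with the deposited scaling, -1.88 with equal totals and -1.04 after quantile normalization, and Smarcc1 at 1.97, 1.97 and 2.58. Equal totals move all genes alike, and relative to the median Smarcc2 (-0.52 and -0.52), Arid1a (-0.16 and -0.15) and Arid1b (-0.41 and -0.40) stayed below 0 with the deposited scaling and with equal totals. After quantile normalization they lay above the median, at 0.31, 0.75 and 0.18.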

How the data were processed

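Members and gene lists were chosen with earlier results of these data known. Sequencing reads were mapped by the authors to GRCm39 with STAR 2.7.10a, which also did the counting. Genes with few reads were removed, and library scaling used DESeq2 1.36.0. Libraries were stranded, but the annotation release and the strand setting of the counting are not given in the sources used here. Each deposited value is a signal, the authors' read count over a library's size factor. Dividing by that factor's step gave back whole reads for 100% of values (tolerance 0.01). Columns with the letter C were taken as control and with A as tamoxifen, although the labels do not spell out A. Replicates differed beyond counting noise (chi-square per degree of freedom 30.0 and 74.2), and intervals and floors would cover counting error only.

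Differences were tested in R 4.3.3 with limma 3.58.1 (eBayes with trend, Benjamini-Hochberg adjustment). Values were log2(normalized count + 1), and genes averaging under 10 were left out. Fold changes on this scale understate low genes. Folds in words are the same log2 values turned back to the linear scale, so they share this limit. Genes named are the members, the other subunits, Mgp, 3 nearest patterns for each of Smarca2 and Actl6b, and the largest called ATPases of other remodelers (up to 3 in each direction). Chd9, the remaining called ATPase, genes overlapping subunits and single cell type markers were named after their values were seen. Gene locations and lengths came from GENCODE M39. On simulated data limma called 196 of 200 changed genes and 2 unchanged genes among 20205. That simulation gave all genes the same dispersion and changed few of them, whereas 44.7% of tested genes were called here. It therefore checks that the fit runs correctly and does not give the error rate of the calls above. Count models for recovered reads were edgeR 4.0.16 and DESeq2 1.42.0.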

Additional observations from a re-analysis of the deposited data

How the results depend on the processing

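Smarca2 (log2 fold change -2.01 to -1.24) and Smarcc1 (1.99 to 2.49) kept an adjusted p under 0.05 and their direction in all 14 alternatives. Quantile normalization left 1 member and 1 other subunit called higher, 1 remodeler ATPase lower and 5276 of all tested genes lower. It turned Smarcc2 to 0.11, Arid1a to 0.55 and the Smarcd1/Smarcd3 log2 shift to 0.62, and moved the shifts of Smarcc1/Smarcc2 to 2.27, Arid1a/Arid1b to 0.57 and Actl6a/Actl6b to -0.93. Equal totals, which raised the median of all tested genes from 0.05 to 0.52, put Arid1a at 0.37 and Arid1b at 0.11, both still below that median, with 0 other subunits and 1838 of all genes called lower. By adjusted p alone 4 other subunits, 2 ATPases and 5228 of all genes were lower, and a filter at a mean of 100 left 3540 genes higher. With equal totals and after quantile normalization Smarca4 passed the p threshold at 0.68 and 0.84 (limma, adjusted p = 0.01 and 0.00442). Actl6a did so at 0.87 and 0.52 (limma, adjusted p = 0.00139 and 0.0118). Arid1a passed it after quantile normalization (limma, adjusted p = 0.0139). With the filter at 100, Smarcc2 and Actl6a passed it (limma, adjusted p = 0.0491 and 0.044). None of these reached the fold threshold. With the longest transcript the Smarca4 share rose by 33.5 points. Other causes were not tested.

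With each library left out in turn, members called higher numbered 1 to 3 (1 without tamoxifen library 1 or 2), other subunits 1 to 2 higher and 1 to 2 lower, ATPases 2 to 4 higher, and all genes 2553 to 6163 higher and 1594 to 3537 lower. Log2 shifts ranged from 1.89 to 2.20 for Smarca4/Smarca2, 2.32 to 2.66 for Smarcc1/Smarcc2, 0.20 to 0.31 for Arid1a/Arid1b, -1.04 to -0.29 for Smarcd1/Smarcd3 and -2.77 to -1.45 for Actl6a/Actl6b. A lone library was assumed to vary like the other group.

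Whether the replicate number pairs the libraries is not given in the sources used here. Same-numbered deviations correlated at 0.025 over 20485 genes, but with 2 pairs this cannot decide it. With the replicate number as a block, the adjusted p of Smarcd1 was 0.0606 (limma), and the block changed no other member's side of the p threshold. Smarcd1 lost the p threshold in 7 of 14 alternatives, Smarcd3 in 6 and Actl6b in 3.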
